A study of Mus musculus with 4 samples.

Results

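The Gm4340 family is a row of 7 near-identical predicted genes on mouse chromosome 10: Gm21293, Gm6763, Gm8764, Gm21304, Gm21312, Gm20765 and Gm4340. They were chosen by symbol, and all 7 were found, with 18 transcripts of the 58853 in the deposited tables and 7 of their 24190 gene symbols. The genes were picked because earlier work on these libraries had found some of them among the largest increases in GFP-positive cells, so their difference between GFP-positive and GFP-negative cells is given here as a description, without a test. Poly-A RNA was sequenced from sorted mouse embryonic stem cells (ESCs) of the male line E14Tg2a, kept in serum-free medium that held a MEK inhibitor (PD0325901) and a GSK3β inhibitor (CHIR99021).

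All cells carried a stably integrated promoter of Zscan4c. In 1 line, the GFP line, the promoter was placed before GFP. In the other, the GFP-Zscan4c line (fusion line below), it was placed before Zscan4c joined to GFP. Both are described as clonal, so each line stands for 1 clone. Each line was sorted into GFP-negative cells, labelled pluripotent, and GFP-positive cells, labelled 2C-like. This gave 4 populations with 1 library each, so there is no replicate error for any value below, and no test was made. Values are TPM, an abundance per transcript on a common scale, which adjust reads for transcript length and library size and keep no read counts. The depth of each library is therefore unknown.

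Cultures of mouse ESCs hold a rare, transient state in which genes of the 2-cell embryo are transcribed, among them Zscan4 and many multicopy families arranged in tandem. The transcription factor Dux is known to activate much of this programme. The Gm4340 genes are annotated as protein-coding, and the reference used here gives their products no name or function.

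The array lies at chr10:104142987-104196522 (GRCm38, plus strand) and spans 53.5 kb. Each gene starts 8509 or 8510 bases after the one before it. The body of each gene covers between 2468 and 2481 bases, except Gm21293, whose annotation runs over 10688 bases because 1 of its transcripts is spliced into the last exon of Gm6763. Every gene has a 2-exon transcript, with a first exon of 106 bases and a last exon that holds the whole coding sequence. Every gene also has a form with an alternative first exon of 45 bases. Gm21312, Gm20765 and Gm4340 have in addition a form of a single exon, made of the coding sequence alone.

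**Figure D1:**
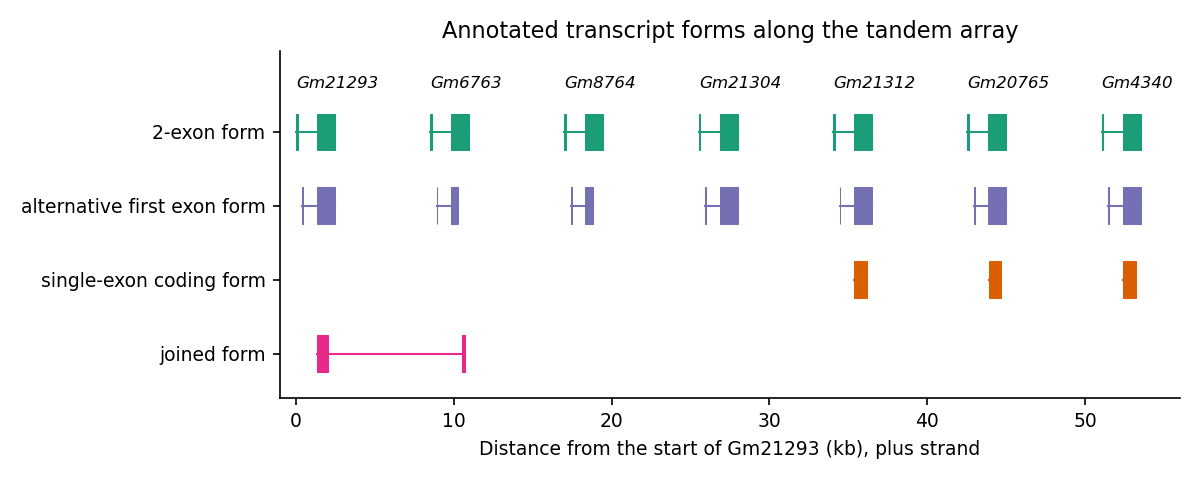
Annotated transcripts of the 7 genes (GENCODE M21), drawn to scale against distance from the start of Gm21293 in kb, with boxes for exons and a row for each kind of transcript. The starts are 8509 or 8510 bases apart, 3 genes have a single-exon coding form, and the joined form of Gm21293 ends inside Gm6763.

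The copies can hardly be told apart by sequence. The 18 transcripts have 8 distinct sequences, and the 2-exon transcripts of 6 genes are identical over all 1246 bases. Of the 50-base windows in their transcripts, Gm6763, Gm8764, Gm21304, Gm21312 and Gm20765 have 0 of 1242 that occur in no other family member. Gm4340 has 14 of 1254 and Gm21293 has 38 of 1280. A read from the shared sequence could come from any of the 7, so the value of each gene depends on how the authors' software divided such reads. Only the family sum is free of that division among members.

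Gm4340 differs from Gm20765 in its coding sequence by 12 extra bases, or 4 codons, inside a repeat of glutamine codons (CAG and CAA) interrupted by lysine codons (AAG). All other bases of the coding sequence are identical, 807 bases in Gm4340 and 795 in Gm20765. The repeats are shown because they hold the difference between the coding forms, read from GENCODE M21 transcripts on the plus strand of GRCm38, with lysine codons in capitals. The Gm4340 repeat (chr10:104196042-104196140) has 33 codons, 6 of them for lysine, and that of Gm20765 (chr10:104187532-104187618) has 29, 5 of them for lysine.
Gm4340: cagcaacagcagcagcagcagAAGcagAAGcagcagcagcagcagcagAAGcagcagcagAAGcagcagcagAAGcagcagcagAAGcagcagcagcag
Gm20765: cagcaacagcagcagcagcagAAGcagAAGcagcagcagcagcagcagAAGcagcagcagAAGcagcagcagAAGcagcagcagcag

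A search of all GENCODE M21 transcripts with the Gm20765 coding sequence (BLAST, nucleotide, same strand) matched 27 genes outside the family. Of these, 15 lie together on the same chromosome at chr10:100297941-100397070, and match at 83.7% to 94.95% of aligned bases. The other 12, on other chromosomes, match at 75.9% to 90.2%. Among them is Alyref, an mRNA export adaptor gene of the TREX complex, on chromosome 11, with 82.6% identity over 568 aligned bases. Alyref2 matched at 75.9% over 643 bases. A stretch of 90 coding bases, the window without gaps nearest the middle of the Gm20765 coding sequence, shows the likeness, with capitals for bases that differ from Gm20765. It covers coding bases 353 to 442, at chr10:104187239-104187328 in Gm20765. Gm4302 (chr10:100340836-100341762, plus strand) differs there at 1 base and Alyref (chr11:120592121-120598365, minus strand) at 6.
Gm20765: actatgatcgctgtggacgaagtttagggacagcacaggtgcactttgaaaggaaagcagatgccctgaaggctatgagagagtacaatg
Gm4302: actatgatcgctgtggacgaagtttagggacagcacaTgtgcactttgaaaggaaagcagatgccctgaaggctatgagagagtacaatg
Alyref: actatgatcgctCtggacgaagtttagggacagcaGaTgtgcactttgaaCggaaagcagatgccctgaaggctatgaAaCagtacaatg

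The sequences before the gene starts are also copies of each other. Promoter sequences from RefSeq (GRCm38.p6, 250 bases before to 50 after the start) were found for 6 of the 7, all but Gm6763. Those of Gm21293, Gm8764, Gm21304 and Gm20765 were identical. Those of Gm21312 and Gm4340 differed from them at the first base alone (G1C, counted from the 5′ end of the window, with Gm20765 first). The 250 bases before the start of Gm20765 (chr10:104185283-104185532, plus strand) are shown as the sequence that the copies share. No measurement here bears on promoter activity. Capitals mark a unit of 30 bases that occurs 2 times in the window.
Gm20765: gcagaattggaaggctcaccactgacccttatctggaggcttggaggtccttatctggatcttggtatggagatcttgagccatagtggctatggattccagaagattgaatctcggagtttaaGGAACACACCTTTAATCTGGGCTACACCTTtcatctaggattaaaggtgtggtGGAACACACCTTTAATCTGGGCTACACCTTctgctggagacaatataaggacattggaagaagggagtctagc

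Of 4 motifs searched on both strands of the full windows, GGATTA, a core bound by Obox and Crx homeobox proteins, was in all 6 promoters, once in each, starting 89 bases before the gene start. It occurs in 7.06% of the 32851 mouse promoters in the table. A Dux-type motif, TGATT and ATCA with any 2 bases between them, was in 0 of 6 and in 0.207% of all promoters. TATAAA was in 0 of 6 and in 13.6% of all, and a microsatellite of 5 CA units in 0 of 6 and in 1.61% of all. The other searched motifs were absent, so none could overlap the GGATTA match. The 6 windows differ at most at their first base, so their counts are not separate finds. The 30-base unit was in 8 of 32845 promoters of other genes, a single copy in each. Of the genes behind them 3 were listed, and they are named here after their values were seen. Sp110 was at 0 as listed, 1.02, 0 as listed and 3.98 TPM in negative and positive cells of the GFP line, then of the fusion line. Pemt, which encodes an enzyme of phosphatidylcholine synthesis, was at 0 as listed, 3.803, 0.381 and 6.41 TPM, and Gm12790 was at 0.487 TPM in the last library and listed at 0 in the others. All 3 were thus low next to the family in GFP-positive cells.

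Facts of the libraries that bear on these values are few. In the negative library of the GFP line 48.4% of symbols were listed at 0, against 11.6% to 19.5% in the others, so a 0 there cannot be read as absence. The 10 pluripotency markers were all above 0 in every library, with sums of 3180 to 6630 TPM. The lowest sum was in the GFP-negative library of the fusion line. That gap came mostly from Dppa5a, at 41.4 TPM there against 2280 to 2729 TPM in the others. Klf4 was at 40.1 TPM, against 69.5 to 187 TPM. Nanog, Klf2 and Zfp42 were also at their lowest there, but Sox2 and Tfcp2l1 were at their highest, at 646.5 and 142.5 TPM. Pou5f1, Esrrb and Tbx3 lay within the range of the other libraries. Zscan4c, as a check of the sort, was at 9.24 and 497 TPM in the GFP line and at 4.11 and 366 TPM in the fusion line, GFP-negative cells first. In the fusion line the transgene may add to its value. The lists of markers of other lineages were low: the 4 listed primitive endoderm markers of 6 summed to between 0 and 3.07 TPM, the 4 listed trophectoderm markers of 7 to between 0 and 16.5 TPM, and the 3 listed fibroblast markers of 6 to between 0 and 11.9 TPM. Each of these sums was higher in the GFP-positive library of each line. In the negative library of the GFP line all 4, 4 and 3 of these markers were at 0. The fibroblast sum was almost all Thy1, at 11.9 and 7.27 TPM in the positive libraries of the GFP line and the fusion line. Col1a1 and Col1a2 were at 0.114 TPM or below in every library. Among primitive endoderm markers, Sox7 and Foxa2 were above 0 only in the negative library of the fusion line. Elf5, a defining trophectoderm gene, was at 0.0452 TPM in the GFP-negative library of the fusion line and listed at 0 in the other 3. The trophectoderm markers Eomes, Krt8 and Krt18 were at 2.64, 8.51 and 5.34 TPM in the GFP line's positive library. For the fusion line, negative sort first, Eomes was at 0 as listed and 3.42 TPM, and Krt18 at 5.42 and 5.74 TPM. Krt8 was listed at 0 in both libraries of that line. The 4 listed epiblast or differentiation markers of 6 were above 0 in every library, with sums of 53.2 and 48.3 TPM in the GFP line and 74.9 and 84.8 TPM in the fusion line, negative cells first. Their ratios of the fusion line over the GFP line, positive cells first, did not share a direction. Otx2, at 24.3 and 24.7 TPM, then at 55.6 and 62.1 TPM, had ratios of 2.52 and 2.29. Pou3f1 had ratios of 1.21 and 1.22, Sox1 of 1.64 and 0.857, and Nes of 0.636 and 0.426. The part of such cells in the values below was not tested. In bulk RNA, more cells in the 2C-like state and more RNA per cell cannot be told apart.

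The family was low in both GFP-negative libraries and high in both GFP-positive ones. Summed over the 7 genes, it was at 34.4 TPM (negative sort) and 2129 TPM (positive sort) for the GFP line. The fusion line gave 25.1 and 5147 TPM. Against single listed genes, the family sum took place 21 in the GFP line's positive library and place 5 in the fusion line's. Other multicopy families were not summed for these places. No member's GFP-negative value came near its GFP-positive value in either line.

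Gm21293, the first gene of the array, was at 3.999 TPM (negative sort) and 316 TPM (positive sort) for the GFP line, then at 3.79 and 753 TPM for the fusion line. Gm6763 was at 4.04 and 265 TPM, then at 2.08 and 663 TPM. Gm8764 was at 3.96 and 240.1 TPM, then at 2.37 and 578 TPM. These 3 genes had their highest value in the GFP-positive library of the fusion line, and single-digit values in both negative libraries.

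Gm21304, the middle gene, was at 4.17 and 239.7 TPM, then at 3.05 and 579.5 TPM. Gm21312 was at 5.74 and 357 TPM, then at 4.64 and 859 TPM. Gm20765 was at 5.64 and 357 TPM, then at 4.57 and 859 TPM. Gm4340, the last gene, was at 6.87 and 355 TPM, then at 4.61 and 855 TPM. In all 7 genes the positive library of the fusion line was highest, followed by that of the GFP line, with both negative libraries far below.

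**Figure D2:**
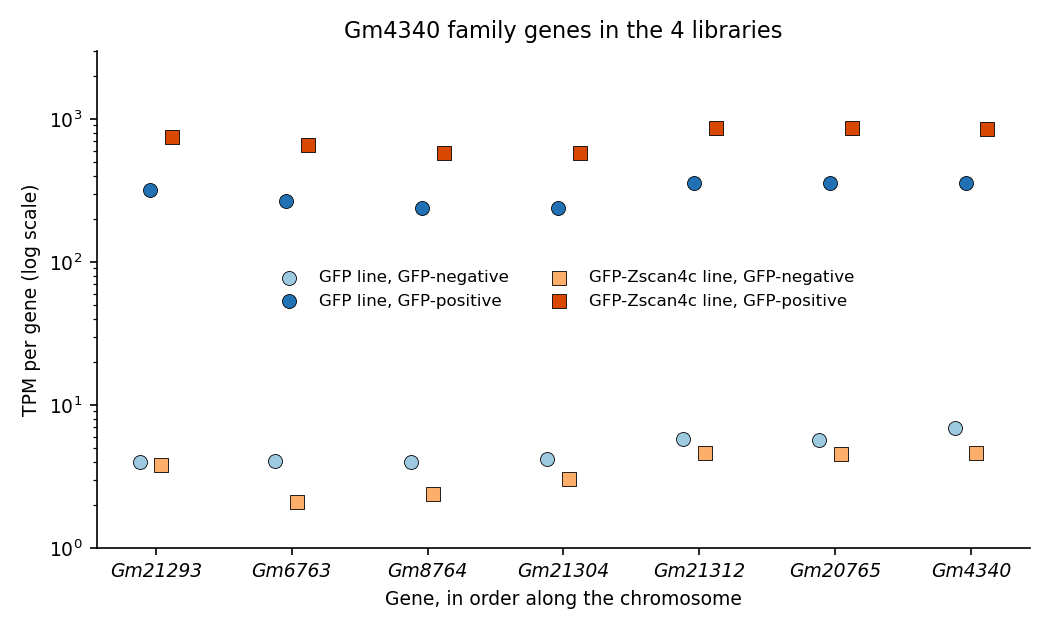
TPM of each gene in each of the 4 libraries on a log axis, genes in their order along the chromosome, circles for the GFP line and squares for the fusion line. Both GFP-negative libraries sit between 2.08 and 6.87 TPM, the positive library of the GFP line between 239.7 and 357 TPM and that of the fusion line between 578 and 859 TPM.

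As ratios, the family sum was 61.8 times higher in GFP-positive cells in the GFP line, with single genes between 51.7 (Gm4340) and 79.1 times (Gm21293). Quantile normalization lowered the log2 ratio of the sum there from 5.91 to 5.06, and put the members between 4.72 and 5.16. In the fusion line it was 205 times higher, with genes between 185 (Gm21312) and 318 times (Gm6763). On the log2(TPM + 1) scale, where ratios of low genes come out too small, the median of the members was 5.72 and 7.27, against 0.19 and 0.14 over all genes at 5 TPM or more in either library compared. In each line 7 of 7 members were higher by 2-fold or more and 0 were lower. The background was 33.2% of 11062 genes higher and 7.48% lower in the GFP line, and 8.23% of 10981 higher and 3.14% lower in the fusion line. Under quantile normalization the split of all genes past 2-fold went from 3676 higher and 827 lower to 2618 and 2480 in the GFP line, and from 904 and 345 to 647 and 499 in the fusion line. Nothing is read from the members' counts, since this contrast chose the genes.

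By rank among the 24190 symbols, the members lay between places 7119 and 8257 in GFP-negative cells of the GFP line and between 10071 and 11914 in that of the fusion line. In GFP-positive cells they lay between places 259 and 444, and between 89 and 150. These places depend on how shared reads were divided among the members.

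**Figure D3:**
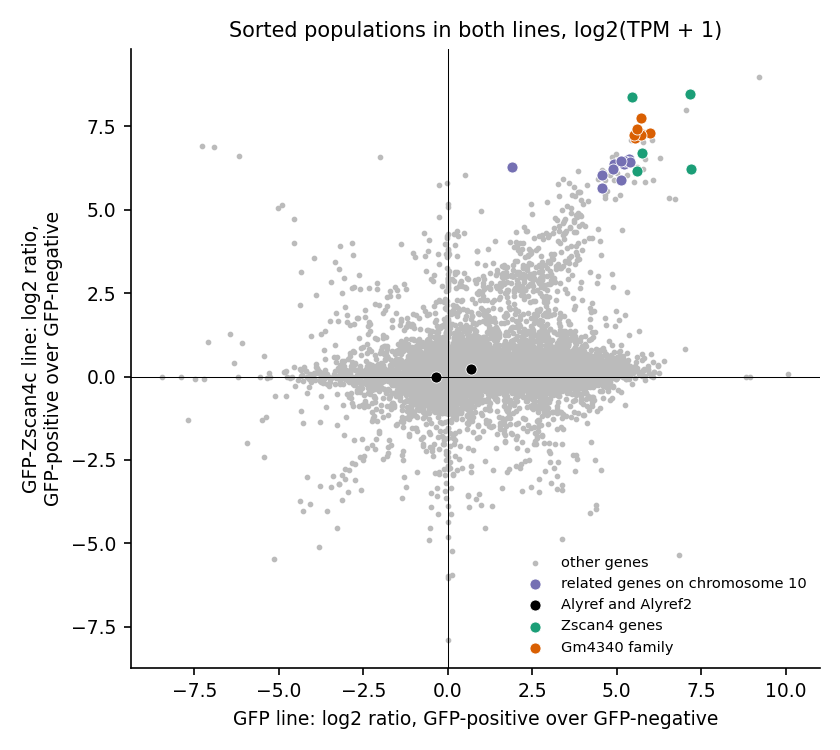
Log2 ratio of GFP-positive over GFP-negative cells, from TPM + 1, in the GFP line (horizontal) and in the fusion line (vertical), for genes at 5 TPM or more in any library, with 1 point per gene. The Gm4340 family lies between 5.50 and 5.99 on the horizontal axis and between 7.16 and 7.75 on the vertical axis, while Alyref is at -0.34 and -0.004.

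The constructs were compared next, on the GFP-positive values that had also entered the choice of the genes, so these differences too are a description. Among GFP-positive libraries the family was higher in the fusion line, at 5147 TPM against 2129 TPM, a ratio of 2.42. The ratios of the 7 genes were close to each other, from 2.38 for Gm21293 to 2.50 for Gm6763. All 7 were 2-fold or more higher and 0 were lower, where the background was 5.71% of 11126 genes higher and 4.05% lower. The median of the members was 1.27 on the log2(TPM + 1) scale, against 0.05 over all genes tested. With 1 library of 1 clone on each side, the construct, the clone and the purity of the sort cannot be told apart. Since the members share reads, their 7 ratios are not separate measurements.

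Other genes of the 2C-like state gave a wider range of ratios in that contrast. Of the 5 Zscan4 genes, Zscan4c was at 497 and 366 TPM, a ratio of 0.735, and Zscan4f, Zscan4e, Zscan4d and Zscan4b had ratios of 2.17, 2.46, 3.36 and 5.17. Tcstv1 had a ratio of 2.58 and Tcstv3, its neighbour on chromosome 13, of 3.204. Duxf3, the Dux gene, was at 7.72 and 7.36 TPM, a ratio of 0.953. The family ratio thus lay above those of Zscan4c and Duxf3 and below those of Zscan4b, Zscan4d and the Tcstv genes, with no replicate to give any of these differences an error.

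A list of 38 genes of the 2C-like state, drawn up with earlier results of these data known, had 37 rows. Of these, 31 were at 5 TPM or more in either library of the GFP line and all 31 were 2-fold or more higher in GFP-positive cells, with 33.2% of all genes higher. In the fusion line 32 reached that level and all 32 were higher, with 8.23% of all genes higher. Such a filter favours genes that are on in GFP-positive cells. Over all 37 rows the median log2 ratios were 4.92 and 5.69, and 5 and 2 of the genes past the filter had larger ratios than the family sum at 5.91 and 7.62. Among GFP-positive libraries, 21 of 33 were 2-fold or more higher in the fusion line and 1 was lower, with 5.71% of all genes higher and 4.05% lower. The median of the 33 was 1.08. In that contrast 12 of the 33 had a larger ratio than the family sum.

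**Figure D4:**
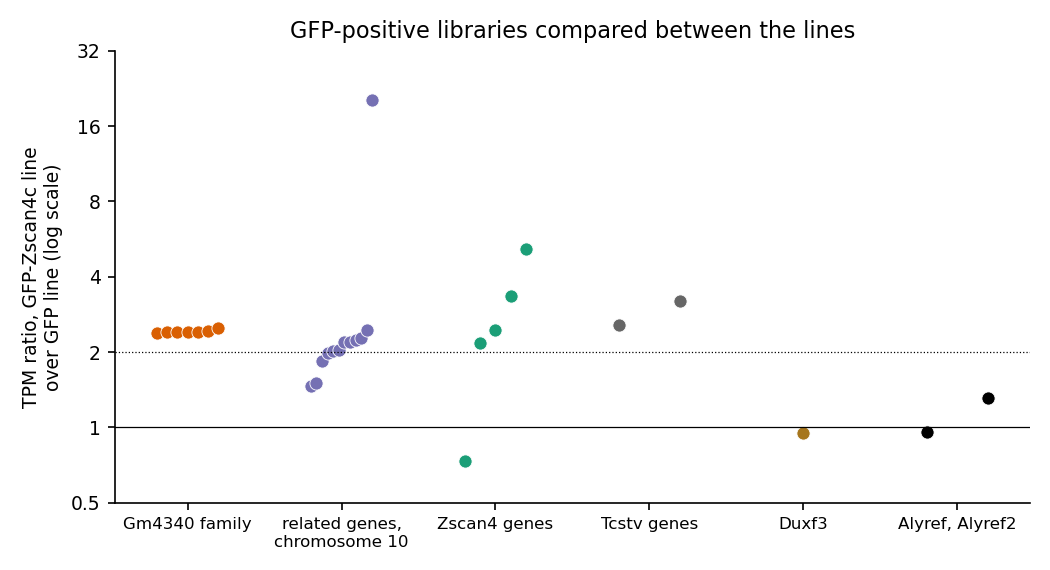
Ratio of TPM in the GFP-positive library of the fusion line to that of the GFP line, on a log axis, with 1 point per gene, sorted by value within each group, a solid line at equal levels and a dotted line at 2-fold. The Gm4340 genes sit between 2.38 and 2.50, the 12 related genes on chromosome 10 between 1.47 and 20.3, and Duxf3 at 0.953. The related gene at 20.3 is Gm9476, and the next highest of them is Gm4781 at 2.46.

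Among GFP-negative libraries the family was at 25.1 TPM in the fusion line and 34.4 TPM in the GFP line, a ratio of 0.729. The ratios of the 7 genes ran from 0.515 for Gm6763 to 0.948 for Gm21293. Only Gm21312, Gm20765 and Gm4340 reached 5 TPM in either library, and 0 of these 3 differed by 2-fold or more in either direction, with a background of 30.1% of 10672 genes higher and 8.49% lower. Quantile normalization changed that split from 3214 higher and 906 lower to 2573 and 2341. It also put these 3 members at 2-fold or more lower, with log2 ratios of -1.05 for Gm21312, -1.05 for Gm20765 and -1.21 for Gm4340. The other members, for which the filter was not applied again, ran from -0.98 for Gm21293, short of 2-fold, to -1.57 for Gm6763. The log2 ratio of the family sum moved from -0.44 to -1.38. Median-ratio scaling turned the Gm21293 log2 ratio from -0.06 to 0.062, so no direction is given for it. In this contrast the library with 48.4% of symbols at 0 is the one where the family was higher.

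Within each library the genes fell into groups by the transcript forms they are annotated with. Gm21312, Gm20765 and Gm4340, the genes with a single-exon coding form, were the highest 3 in all 4 libraries. Among positive cells of the GFP line they lay between 355 and 357 TPM, and the other 4 genes between 239.7 and 316 TPM. In the fusion line they lay between 855 and 859 TPM, and the other 4 between 578 and 753 TPM. The highest and the lowest of the 3 differed by 0.558% and 0.469% in these libraries, and by 21.8% and 1.62% in GFP-negative cells of the GFP line and the fusion line. The 3 genes together held 50.2% and 50.001% of the family sum in GFP-positive cells, and 53.0% and 55.0% in GFP-negative cells.

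Most of the TPM of those 3 genes was listed under the single-exon form, 90.7% to 90.9% of each gene in GFP-positive libraries. The single-exon form of Gm20765 was at 324 and 780.1 TPM, while the 2-exon form of the same gene was at 17.4 and 39.3 TPM. In Gm8764 and Gm21304, which have no single-exon form, the 2-exon form was at 173 TPM each in the GFP line and at 395 and 397 TPM in the fusion line. The 2-exon forms of these genes have identical sequences.

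For Gm21293 the largest share was listed under the joined form, 58.0% and 59.3% of its TPM in GFP-positive cells. That transcript was at 184 and 447 TPM there, at 0 as listed in the negative library of the GFP line and at 1.55 TPM in that of the fusion line. The forms with an alternative first exon summed to 310.3 and 823 TPM in GFP-positive cells, 14.6% and 15.99% of the family. In the negative library of the GFP line all 7 of these forms were listed at 0. That library had 8 of the 18 transcripts at 0, and the other 3 libraries had none.

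The single-exon forms are 795 or 807 bases long and the 2-exon forms 1246 or 1258, and a given number of reads gives a shorter transcript more TPM. Multiplying each transcript's TPM by its length and dividing by 1246 puts the forms on 1 scale, a step chosen after the values were seen. On that scale the 3 genes with a single-exon form no longer stood above the rest in GFP-positive libraries. Gm21304, Gm21312, Gm20765 and Gm4340 were at 236, 239, 239 and 241 TPM in the positive library of the GFP line, and at 571, 575, 575 and 580.4 TPM in that of the fusion line. Gm21293 was then highest, at 257 and 610 TPM, and Gm8764 lowest, at 200.3 and 470 TPM. In GFP-negative cells of the fusion line the weighted values ran from 1.07 TPM for Gm6763 to 3.26 TPM for Gm21293, relatively further apart than the deposited 2.08 to 4.64 TPM. The weighted family sum in GFP-positive cells was 1632 and 3918 TPM, below the deposited sums, and the ratio between the constructs was 2.40, close to the 2.42 of the deposited values.

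**Figure D5:**
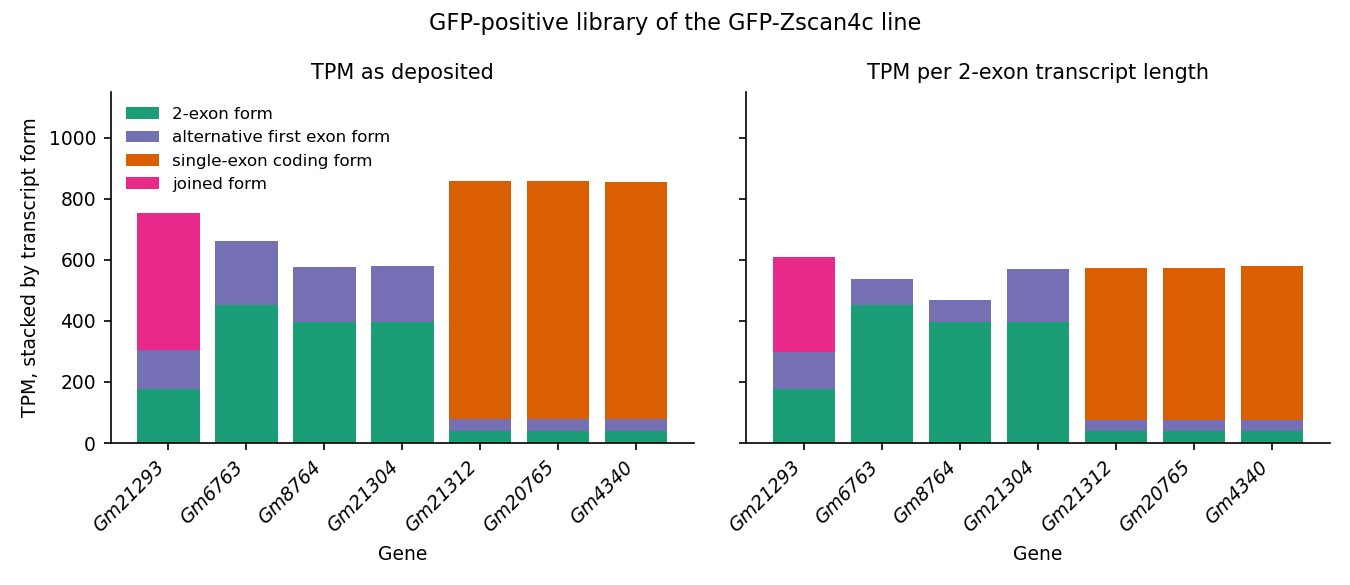
TPM of each gene in the GFP-positive library of the fusion line, stacked by transcript form, as deposited (left) and after weighting by length relative to the 2-exon form of 1246 bases (right). The 3 genes with a single-exon coding form stand at 855 to 859 TPM on the left and at 575 to 580.4 TPM on the right, next to Gm21304 at 571 TPM.

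The genes related by sequence, found without use of their levels, were next compared. Of the 15 at chr10:100297941-100397070, 12 were listed, and all 12 were higher by 2-fold or more in GFP-positive cells of both lines, with the background of 33.2% and 8.23% given above. None of the 12 was above 1.54 TPM in a GFP-negative library, so each passed the 5 TPM filter only through positive cells, and the count is no support for a difference. They summed to 11.6 and 735 TPM in the GFP line and to 8.17 and 1565 TPM in the fusion line, GFP-negative cells first. Gm4302, an example, was at 0.848 and 74.5 TPM, then at 0.733 and 152 TPM. Among GFP-positive libraries 8 of the 12 were 2-fold or more higher in the fusion line and 0 were lower. The background there was 5.71% of all genes higher and 4.05% lower. Some lay close to the cut, such as Gm4301 and Gm4303 at log2 ratios of 1.004 and 0.981. Their ratios ran from 1.47 for Gm4312 to 20.3 for Gm9476, a wider range than in the Gm4340 family. Gm9476, at 5.34 TPM in the GFP line, stood apart, and the next highest ratio was 2.46 for Gm4781.

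These relatives share between 22 and 113 of their 50-base windows with the Gm4340 family, so short reads may be divided between both groups as well. No window of 100 bases was shared with any transcript outside the family. The read length is not given in the sources used here, and the part of shared reads in these values was not tested.

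Alyref itself, which shares no 50-base window with the family, did not follow it. Alyref was at 66.9 TPM (negative sort) and 52.6 TPM (positive sort) for the GFP line, and at 69.1 and 69.0 TPM in the fusion line. Alyref2 was at 3.54 and 6.31 TPM, then at 5.00 and 6.03 TPM. In GFP-positive cells the family sum thus exceeded the Alyref level, which had been the higher in both GFP-negative libraries.

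Of the 12 related genes on other chromosomes, 8 were listed. Gm6489, a processed pseudogene on chromosome 1 with 88.6% identity, was at 0.194 and 29.1 TPM, then at 0.397 and 55.7 TPM. Gm9458, another on that chromosome with 86.7% identity, was at 0 as listed and 2.68 TPM, then at 0.0335 and 7.35 TPM. Gm11246 on chromosome 4 was at 14.6 and 15.9 TPM, then at 1.79 and 1.74 TPM, with no such difference between sorted populations. The related sequences were thus not all higher in GFP-positive cells. Gm6489, Gm9458 and Gm11246 were picked as examples after their values were seen. Gm6489 shares 6 windows of 50 bases with the family, so short reads may be divided there as well. Gm9458 and Gm11246 share 0 such windows.

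The genes whose levels over the 4 libraries were most like the family sum were found among 10045 genes with a mean of 5 TPM or more, by Euclidean distance between log2(TPM + 1) profiles, each centred on its mean. Over 4 libraries such a distance is a description only. The nearest was Tmem92, a membrane protein gene, at a distance of 0.40, with 0 as listed and 64.8 TPM, then 0 as listed and 136 TPM. Zscan4d followed at 0.64, then Gm20767 at 0.70, Gm21818 at 0.82, Gm6803 at 0.83 and Gm28062 at 0.88. The members themselves lay between 0.20 (Gm6763) and 0.42 (Gm21304) from the family sum, of which they are part. The distance of Tmem92 falls in that range, but Tmem92 was at 0 as listed in both GFP-negative libraries. Its profile there is set by the 1 TPM added before the log, so its distance is no match in level. Other added values were not tried for this distance.

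The surroundings of the array could not be described from these tables. GENCODE M21 places 24 other genes within 1 Mb of it, 3 of them protein-coding, and none has a row among the listed transcripts, so they are not analysed here. The nearest listed genes, chosen after this was seen, were 4930430F08Rik, 3.55 Mb before the array, and Gm15664, an unprocessed pseudogene 1.32 Mb after it. 4930430F08Rik was at 0 as listed and 5.93 TPM, then at 4.70 and 8.07 TPM. Gm15664 was at 0 as listed and 0.663 TPM, then at 1.52 and 1.44 TPM. Neither came near the family's level in GFP-positive cells.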

How the data were processed

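TPM per transcript were deposited by the authors, 1 table per library. Per the submitters' processing notes, the tools were HISAT2 2.1.0, StringTie 1.3.5 and CASAVA, on GRCm38 (mm10). Options, annotation release and how transcripts came to be listed were not given in the sources used here. The listed TPM sum to 66.6% to 69.1% of a full scale. TPM were summed per symbol with pandas 2.3.3 in Python 3.11.15. Ratios are of plain TPM, while log2 ratios and the 2-fold counts use log2(TPM + 1). A gene counted as 2-fold apart at 5 TPM or more in either library. No test was run, and each population is 1 library. Positions and transcripts came from GENCODE M21 (GRCm38), and all 18 transcripts matched. Related transcripts were found with blastn of BLAST 2.17.0 (blastn task, e-value limit 1e-10, plus strand, low-complexity filter). Promoters came from RefSeq.

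The members and lists were chosen with earlier results of these data known. Named were all members, listed genes within 1 Mb, the 6 nearest profiles, the Zscan4 and Tcstv genes, Duxf3 and genes related by sequence, the last added later. Alternatives were the pseudocount, the filter, median-ratio scaling, quantile normalization (ties averaged), the highest transcript per gene and, added after seeing the data, weighting by transcript length.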

Additional observations from a re-analysis of the deposited data

How the results depend on the processing

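The log2 ratio of the family sum kept its direction in all 4 contrasts under every alternative, from 5.06 to 5.95 in the GFP line, 7.42 to 7.72 in the GFP-Zscan4c line, 1.24 to 1.28 between GFP-positive libraries and -1.38 to -0.29 between GFP-negative ones. Quantile normalization moved the ratio itself by over 1.5 times in the GFP line, from 5.91 to 5.06, and between GFP-negative libraries, from -0.44 to -1.38. The cause was not tested. Of 168 member ratios under alternatives, 137 moved by less than 1.5 times, 30 by more, and that of Gm21293 between GFP-negative libraries turned from -0.06 to 0.062 under median-ratio scaling. Depth is unknown, and no replicate gives an error. No paired analysis was possible because no population has numbered replicates to block on. The ratios within each line already pair both sorts, and a fit with terms for line and sort, with 1 residual degree of freedom, was not run. The number of genes 2-fold or more apart, in the order GFP line, GFP-Zscan4c line, GFP-positive and GFP-negative libraries, was 4503, 1249, 1086 and 4120. With no filter it was 7023, 2402, 2105 and 6319, and at 10 TPM or more 2949, 828, 696 and 2637, since the filter sets how many genes enter. With only genes above 0 in both libraries kept, the number 2-fold or more apart was 2345 in the GFP line and 2167 between GFP-negative libraries. A pseudocount of 5 TPM gave 639 between GFP-positive ones. Under quantile normalization the share of higher genes went from 81.6%, 72.4% and 78.0% to 51.4%, 56.5% and 52.4% in the GFP line, the GFP-Zscan4c line and GFP-negative libraries. It moved the median of all genes from 0.19, 0.14 and 0.04 to -0.13, -0.05 and -0.11. Median-ratio scaling moved it to -0.01 in the GFP-Zscan4c line and to 0.20 between GFP-negative libraries.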
